A study of Arabidopsis thaliana with 24 samples.

Results

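In Arabidopsis seedlings kept in sorbitol, a small group of well expressed mRNAs held a larger share of the RNA in small polysomes than of total RNA. To find them, the log2 value on the polysomal array was reduced by that on the total RNA array of the same culture, a difference called polysomal occupancy here. Members had a mean occupancy of 0.8 or more over the 6 sorbitol cultures (1.74-fold on the linear scale), and a mean log2 level of 7 or more over the 12 total RNA arrays. These values chose 134 of the 10718 gene features at or above this level, called expressed here (1.25%), and of 30386 in all (0.441%). With each array first centred on its expressed features, the same rule found 49 members. The 134 features stand for 133 loci, because AT1G18210 has 2 of them. Another 110 features reached 0.8 with a mean total level below 7 and were not members.

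Ribosomes that follow each other along one mRNA form a polysome, and centrifugation through a density gradient separates polysomes by how many ribosomes they carry. An mRNA with a short coding region has room for few ribosomes, also when it is well translated, so its polysomes sediment with the small ones. Sugars change the levels of many plant mRNAs and act on translation as well, and genes for ribosome production, stress defence and photosynthesis are among those known to respond.

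Seedlings of the accession Col-0 grew in liquid culture under constant light and were 7 days old according to the labels, while the methods of the study give a longer growth time. They received 150 mM sucrose, or 150 mM sorbitol as osmotic control, for 6 h in light or in darkness. This gave light sucrose, dark sucrose, light control and dark control groups of 3 cultures each, numbered 7, 8 and 9. Total RNA (the steady-state level) and RNA from pooled fractions of small polysomes of each culture were hybridized to AGRONOMICS1 arrays, 24 in all, whose medians lay between 5.92 and 6.06. As one culture holds many seedlings with all organs, a lower level can come from fewer cells of a type or from less RNA per cell, and these cannot be told apart. On the total RNA arrays the leaf genes RCA (12.32 to 13.61) and RBCS1A (8.83 to 10.20) and the root gene CASP1 (8.31 to 10.46) were high in every culture, while the leaf gene CAB1 varied between 6.85 and 9.25, the root hair gene SHV2 between 5.81 and 7.28, and the root phosphate transporter gene PHT1;1 lay between 5.10 and 5.79. The seed storage gene CRA1 (5.30 to 5.90) and the pollen gene VGD1 (4.20 to 5.15) lay below the array medians, and the seed storage gene SESA4 (5.42 to 6.79) did so only in part of the cultures. All log2 values are relative to the rest of their array, so the amount of polysomal RNA in a culture is not known from them, and large polysomes were not analysed here.

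The members were protein-coding genes of the nucleus without exception. Of 117 expressed organelle-encoded genes and 126 expressed non-coding RNA genes, 0 were members, and their median occupancies in sorbitol were -0.62 and -1.18. Chromosome 1 held 42 members (1.51% of its expressed features), chromosome 2 held 23 (1.41%), chromosome 3 held 19 (0.896%), chromosome 4 held 19 (1.16%) and chromosome 5 held 31 (1.28%). The mean total level of members had a median of 8.09 (7.01 to 11.03), against 8.33 for expressed features. In sorbitol, where the values chose the members, occupancy ran between 0.80 and 1.19 with a median of 0.87, against 0.12 for expressed features. Only 17 members had 1 or more and 74 lay under 0.9, so most of the group stood close to the threshold, and the highest reached a 2.28-fold excess. The members nearest to the threshold were CDI and AT1G17080 (both 0.802), and just outside it lay AT2G41950 and AT1G27385 (both 0.798). On the opposite side, 456 expressed features had -0.8 or less.

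**Figure D1:**
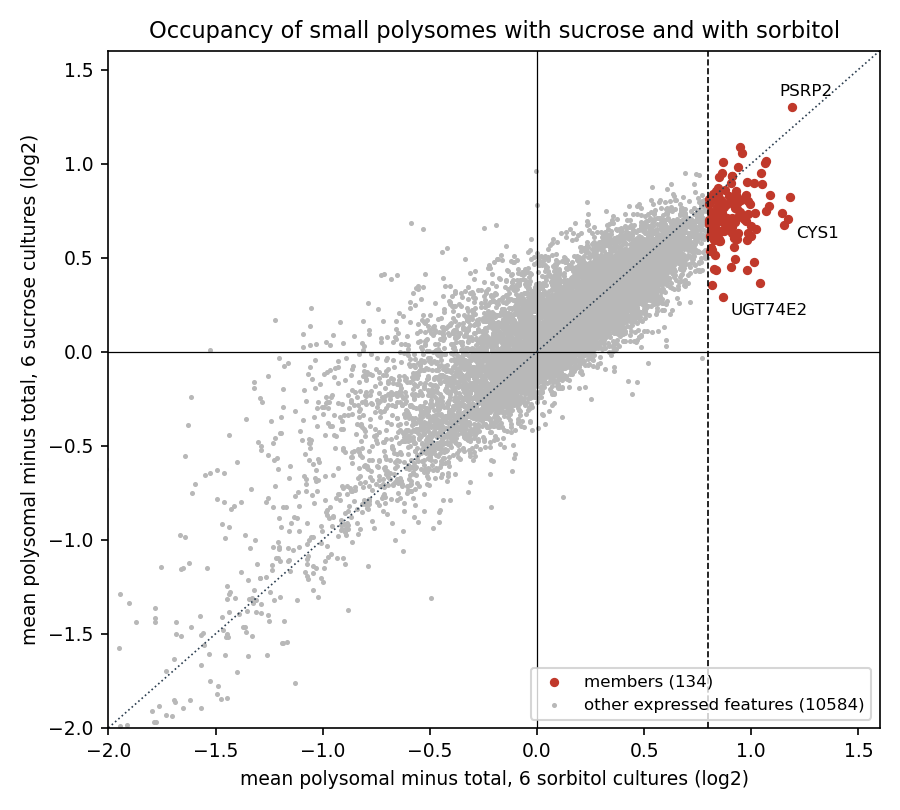
Mean occupancy (log2 polysomal minus log2 total RNA) of each expressed feature in the 6 sucrose cultures, plotted against that in the 6 sorbitol cultures, with members in colour and 57 features outside the frame. Members start at 0.80 on the sorbitol axis by the rule, and on the sucrose axis they lie between 0.29 and 1.303.

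PSRP2 (AT3G52150), for a plastid-specific ribosomal protein, led the list. Its occupancy was 1.19, 1.18 and 0.93 in light sucrose against 1.13, 0.98 and 1.17 in the light control, and 1.40, 1.43 and 1.70 in dark sucrose against 1.39, 1.32 and 1.15 in the dark control. Every culture lay above or near 1, with dark sucrose highest. CYS1 (AT5G12140), a cystatin that inhibits cysteine proteases, had 0.51, 0.68 and 0.77 in light sucrose against 1.21, 1.14 and 0.89 in the light control. In the dark, CYS1 had 0.74, 0.91 and 0.61 with sucrose against 1.21, 1.25 and 1.34 in the control. CYS1 is among the leaders because of its control values, so these are no independent measure of a fall. MLP328 (AT2G01520), a major latex protein-like gene, had a mean of 1.14 in sorbitol but varied widely there, with 1.26, 1.60 and 0.88 in dark controls and 1.31, 1.06 and 0.75 in light controls. AT4G10480, by contrast, was even across all cultures, with 0.998, 1.04 and 1.09 in light sucrose against 1.07, 1.12 and 1.10 in the light control, and 1.09, 0.86 and 0.95 in dark sucrose against 1.10, 0.96 and 1.03 in the dark control. The remaining leaders were AT2G17740 (1.18), AT1G64370 (1.15), AT1G05060 (1.09), the proteasome subunit gene PBD2 (1.08), PCB2 (1.07), which makes a reductase of chlorophyll synthesis, and EMB506 (1.07), a plastid ankyrin repeat protein needed in the embryo, all as means over sorbitol cultures.

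The sucrose cultures offered a test that did not use the values behind the choice, apart from their part in the mean total level. With sucrose, the mRNAs were still more abundant in polysomal than in total RNA. The excess was mostly smaller than in sorbitol, but the sorbitol values had chosen the members, so that drop is no independent result. Limma called 90 members (67.2%) higher in polysomal RNA in light sucrose at an adjusted p under 0.05, against 8.81% of all features and 15.4% of the expressed ones. In dark sucrose it called 89 (66.4%), against 10% of all features and 16.7% of the expressed ones. Of the 134 members, 82 were called in both conditions and 37 in neither. The median excess was 0.71 in light sucrose (0.37 to 1.10) and 0.74 in dark sucrose (0.12 to 1.51), with a median standard error of 0.16. Calls of more than 2-fold were few, 5 members in light sucrose (3.73%, against 0.0856% of all features) and 6 in dark sucrose (4.48%, against 0.0954%). The number of calls depended on the cultures used. With culture 7 left out, limma called 34 members in light and 32 in dark sucrose, with culture 8 left out 37 and 44, and with culture 9 left out 113 and 118. This fit takes the total and polysomal arrays of a culture as independent. In a limma fit of the within-culture differences, an alternative chosen after seeing the data, 133 members were called in light and 130 in dark sucrose (99.3% and 97.0%). Of all features this fit called 19.7% and 22.4%, and of expressed ones 35.1% and 38.1%.

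The direction was the same in almost every culture. All 134 members had an occupancy above 0 in each light sucrose culture and in dark sucrose 8, while 133 did in dark sucrose 7 and 129 in dark sucrose 9. In all 6 sucrose cultures together, 128 members stayed above 0, as did 39.5% of expressed features. Culture medians of the members were 0.71, 0.70 and 0.72 in light sucrose against 0.85, 0.87 and 0.85 in the light control, and 0.82, 0.73 and 0.65 in dark sucrose against 0.93, 0.93 and 0.92 in the dark control. The control medians are high through the choice of members, so only the sucrose medians are an independent measure. The medians of expressed features stayed between 0.06 and 0.20 in every culture.

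**Figure D2:**
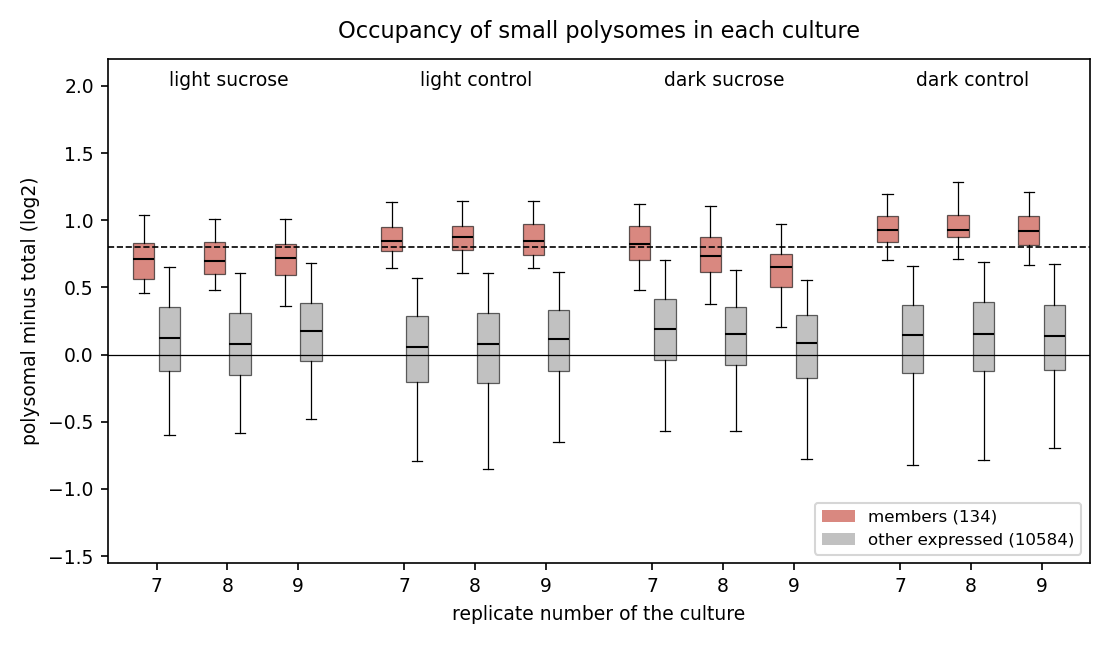
Occupancy (log2 polysomal minus log2 total RNA) of the 134 members and of expressed features in each of the 12 cultures, with boxes for quartiles, a line for the median and whiskers at the 5th and 95th percentiles. The member medians are 0.65 to 0.82 with sucrose and 0.85 to 0.93 in sorbitol.

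Taken over the 6 sucrose cultures, 121 of 134 members had a lower mean occupancy than in sorbitol, and 36 (26.9%) still had 0.8 or more. These 36 made up 63.2% of the 57 expressed features that reached 0.8 with sucrose. The sorbitol values that chose the members also enter the change in occupancy, which is therefore given without a test over the members. Its median was -0.14 in the light (-0.63 to 0.26) and -0.18 in the dark (-1.04 to 0.23), against 0.00 and -0.01 for expressed features. With members chosen on the controls of the other light condition, the medians were -0.0904 in light and -0.12 in dark sucrose. For single genes limma called 0 members in either condition at an adjusted p under 0.05 (0.346% of all features were called higher and 0.0132% lower in the light, and 0.0% in the dark). At an unadjusted p under 0.05, 1 member in the light and 12 in the dark were lower and 0 were higher. A change had a median standard error of 0.22 in this fit, and of 0.12 in the fit of within-culture differences. That fit too called 0 members at an adjusted p under 0.05, the smallest being 0.0633 for light and 0.0522 for dark sucrose. At an unadjusted p under 0.05, it had 21 members (15.7%) lower for light sucrose, 46 (34.3%) lower for dark sucrose and 0 higher. Of all features 4.93% and 4.17% were lower, and of expressed ones 6.62% and 5.18%. The control values that chose the members are subtracted in this change. These shares are therefore no test of a fall, nor are the counts above. Members were also chosen on the controls of the other light condition. At an unadjusted p under 0.05 in the within-culture fit, 29 of these 218 were lower and 3 higher in the light. In the dark 32 of 120 were lower and 1 higher. That fit had 8.76% and 5.74% of all features higher in light and dark, and 16.2% and 6.28% of expressed ones. With arrays taken as independent, 2 of 218 and 8 of 120 were lower and 0 higher.

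The highest occupancies with sucrose belonged to 3 plastid protein genes. These were PSRP2 (mean 1.303), FTRA2 (AT5G08410, 1.09), a subunit of the reductase that passes electrons from ferredoxin to thioredoxins, and TRX z (AT3G06730, 1.06), a thioredoxin bound to the plastid RNA polymerase. FTRA2 had 1.03, 1.01 and 1.26 in light sucrose and 1.12, 1.32 and 0.79 in dark sucrose, and its polysomal excess passed the test in both (limma, 1.10 ± 0.16, adjusted p = 0.000122, and 1.08 ± 0.16, adjusted p = 0.000129, difference ± SE). TRX z was as high in both conditions (1.02 ± 0.15 in light sucrose and 1.09 ± 0.15 in dark sucrose, limma adjusted p = 0.000196 and 7.99e-05), although without culture 7 the excess in dark sucrose had an adjusted p of 0.0523. At the low end stood UGT74E2 (AT1G05680), for a glucosyltransferase that acts on the auxin indole-3-butyric acid. Its occupancy was 0.65, 0.39 and 0.35 in light sucrose against 0.79, 0.93 and 0.99 in the light control, and 0.26, 0.11 and -0.01 in dark sucrose against 0.82, 0.90 and 0.76 in the dark control. Its change in occupancy in the dark was -0.71 ± 0.66 with arrays taken as independent (limma adjusted p = 1) and -0.71 ± 0.11 within cultures (limma adjusted p = 0.0735), and neither passed. AT1G26220 (0.35) and AT1G71740 (0.37) were the other members with the lowest sucrose means. In AT1G71740 dark sucrose culture 7 alone lay below 0, with -0.32, against 0.66 and 0.33 in cultures 8 and 9 and 1.32, 1.14 and 1.33 in the dark control.

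By kind, the group was mixed. Of 26 lists of gene families and functions, 14 had 0 members, 9 had 1 and 3 had 2, with 15 members in all. Cytosolic ribosomal proteins, whose mRNAs are short and abundant, counted 2 of 163 expressed genes, AT1G48830 and AT5G39850, and their list had a median occupancy of 0.09 in sorbitol. Transcription factors counted 1 of 179, and protein kinases 0 of 133. Organellar ribosomal proteins counted 2 of 22 (PSRP2 and RPS2) and thioredoxins and glutaredoxins 2 of 23 (TRX z and GRXC2). Another 6 lists were added after the member names had been seen, so that a high share in them is no result. Among these, the tau class of glutathione transferases, which couple glutathione to toxic compounds, counted 7 of 13 expressed genes, with medians over the 13 of 0.59 in sucrose and 0.82 in sorbitol. Calmodulins and calmodulin-like proteins, which sense calcium, counted 4 of 10. The 20S proteasome counted 2 of 18, methionine sulfoxide reductases 2 of 12, glycine-rich RNA-binding proteins 2 of 5, and other glutathione transferases with the dehydroascorbate reductases 1 of 11. For 57 member features (56 loci) the reference table gives no name beside the locus.

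Some members lie next to each other in the genome. Within 5 protein-coding genes of each other stood 6 pairs, of which GSTU24 with GSTU25, GSTU22 with GSTU20, and GSTU20 with GSTU19 belong to clusters of tau class transferases on chromosome 1. Neighbouring transferases and the calmodulins are similar in sequence, and how far the array's probes separate them is not given in the sources used here, so their single values are uncertain.

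Members came from short genes. The annotated span of a member, introns included, had a median of 1834.5 bp, against 2577.5 bp for the 10342 expressed nuclear protein-coding features, and 126 of 134 members spanned less than 3000 bp. Spans of 3000 bp or more belonged to 5.97% of members and to 37.6% of these expressed features. The share of members was highest between 1000 and 1500 bp (3.71%), was lower from 2500 bp upwards (0.578% and less) and was 0 from 6000 bp, while it was 1.72% in the shortest genes, under 1000 bp. Across these expressed features, log2 span and occupancy with sucrose had a Pearson's r of -0.11, as a description over genes that share all arrays and are not independent replicates. The span is that of the gene and not of the coding region, which was not available for the comparison.

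**Figure D3:**
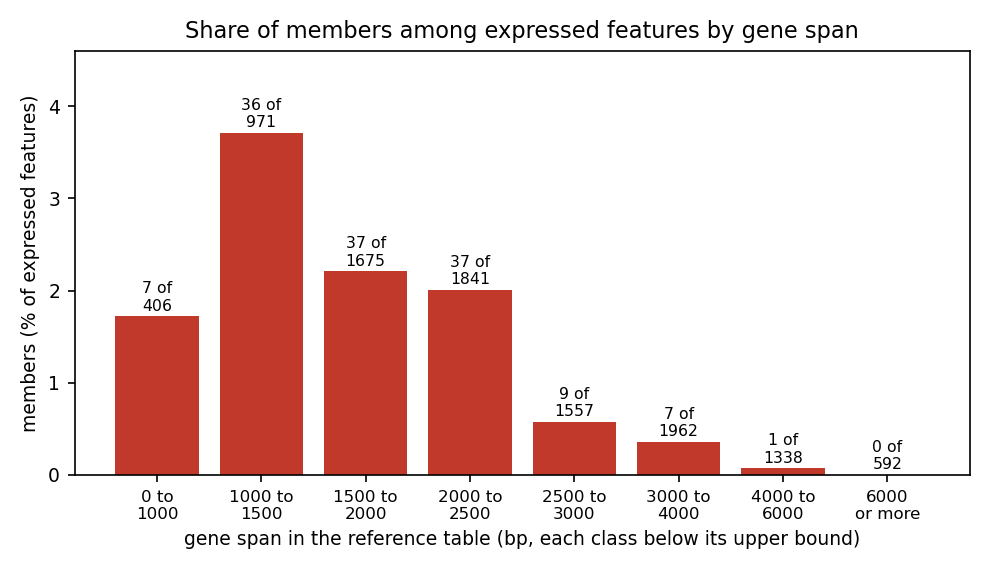
Share of members among expressed nuclear protein-coding features by gene span (introns included, in bp), with the number of members and of features over each bar. The share peaks at 3.71% between 1000 and 1500 bp and is 0 from 6000 bp.

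After sucrose, rises in the steady-state level were frequent among members in both conditions. In the light, 35 members rose (26.1%) and 10 fell (7.46%) by more than 2-fold at a limma adjusted p under 0.05, where 3.73% of all features and 6.86% of expressed ones rose and 4.63% and 8.93% fell. In the dark, 37 rose (27.6%) and 12 fell (8.96%), where 5.47% of all features and 9.42% of expressed ones rose and 5.62% and 11.2% fell. The median change was 0.49 in the light (-2.46 to 2.42) and 0.54 in the dark (-2.82 to 4.23), against 0.03 and -0.02 for expressed features. Rises in both conditions numbered 25 and falls in both 8, and 73 members were called in neither. Without a minimum fold, 68 members rose and 18 fell in the light (50.7% and 13.4%, against 15.7% and 12.8% of all features). In the dark 71 rose and 16 fell (53.0% and 11.9%, against 15.5% and 16.2%). The control total arrays entered these changes and, with the same sign, the choice of members. The sucrose total arrays entered through the level minimum, which 16 members passed although their mean over the sorbitol total arrays was below 7. Of these 16, 4 were called risen in light sucrose, 8 in dark sucrose, and 0 fell. With occupancy taken from the controls of the other light condition, 56 of 218 members rose and 16 fell in the light (25.7% and 7.34%), and 26 of 120 rose and 14 fell in the dark (21.7% and 11.7%). With the level taken from those controls too, a choice that uses no array of the comparison and was added after seeing the data, 40 of 204 rose and 24 fell in the light (19.6% and 11.8%), where 5.08% and 10.5% of the features at this level did. In the dark 18 of 113 rose and 22 fell (15.9% and 19.5%), where 7.28% and 13.4% did. Rises thus outnumbered falls in the light under each choice, but not in the dark under this one.

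**Figure D4:**
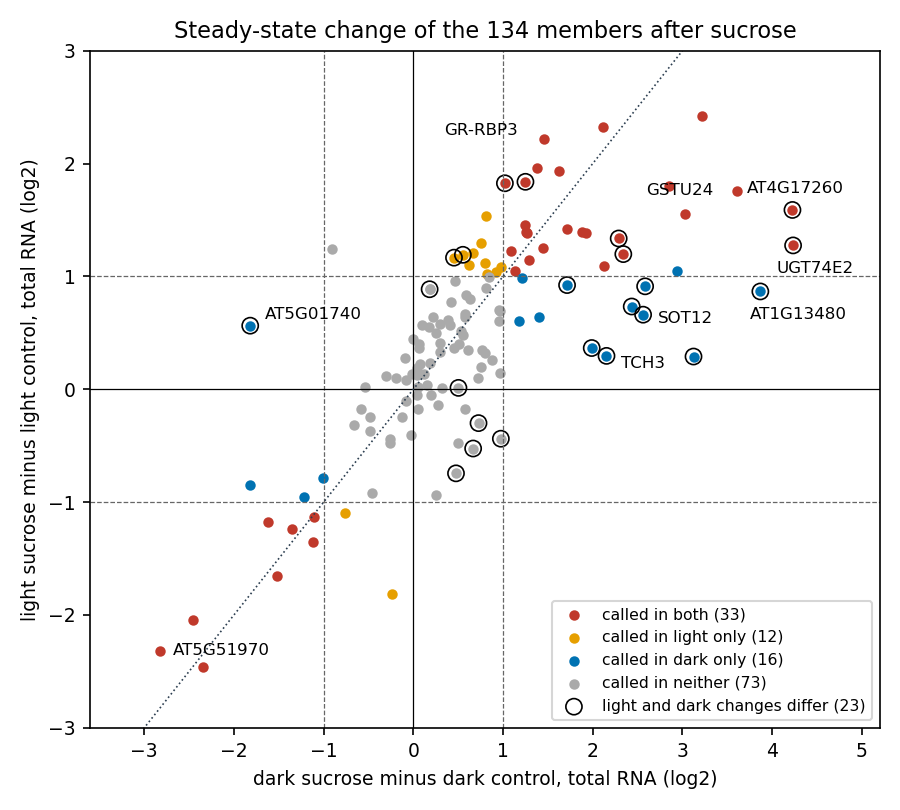
Steady-state change after sucrose (log2 sucrose minus control of total RNA) of each member in the light, plotted against that in the dark, with colours for where the change was called and rings for a light minus dark difference that passed the test. Of the 134 members, 25 rose in both conditions and 8 fell in both.

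The furthest rise in the light was that of AT1G67360, which reached the level minimum only through its sucrose cultures (mean of the sorbitol total arrays 6.67). Its total RNA level was 9.33, 9.52 and 9.30 in light sucrose against 6.89, 7.22 and 6.78 in the light control, and 9.52, 9.89 and 9.40 in dark sucrose against 6.49, 6.49 and 6.18 in the dark control. The groups were far apart in both conditions (limma, 2.42 ± 0.18, adjusted p = 7.92e-09, and 3.22 ± 0.18, adjusted p = 8.12e-11). AT1G61255 came next in the light, with 9.62, 9.33 and 10.25 in sucrose against 6.77, 7.20 and 8.27 in the control (limma, 2.32 ± 0.48, adjusted p = 0.000901). GR-RBP3 (AT5G61030), a glycine-rich RNA-binding protein gene whose sorbitol mean was also below 7, had 9.10, 9.06 and 8.59 in light sucrose against 6.51, 6.82 and 6.77 in the light control (limma, 2.22 ± 0.17, adjusted p = 9.86e-09). In none of these 3 genes did sucrose and control cultures overlap.

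The same 3 genes fell furthest under both light conditions. AT3G07310 had a total RNA level of 6.40, 6.33 and 6.47 in light sucrose against 8.77, 9.16 and 8.67 in the light control, and 5.56, 6.07 and 5.91 in dark sucrose against 8.43, 8.20 and 7.96 in the dark control. AT5G51970 had 5.84, 5.98 and 5.95 in light sucrose against 8.11, 8.25 and 8.37 in the light control, and 5.69, 6.11 and 6.38 in dark sucrose against 8.84, 8.86 and 8.95 in the dark control. Their falls were -2.46 ± 0.20 and -2.32 ± 0.13 in the light and -2.35 ± 0.20 and -2.82 ± 0.13 in the dark (limma, all adjusted p at or below 1.57e-08). AT5G53490 had a change of -2.04 ± 0.34 in the light (limma adjusted p = 9.63e-05) and of -2.46 ± 0.34 in the dark (adjusted p = 9.03e-06).

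To see which kinds of gene responded, 60 members with a well-known role were put into 7 groups, after their values had been seen. The counts below are therefore descriptions. The other 74 members had 17 rises and 8 falls in the light and 18 rises and 9 falls in the dark.

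Enzymes of glutathione, redox and detoxification chemistry formed the largest group, 16 members, and rose most in the dark. More than 2-fold rises numbered 6 in light and 11 in dark sucrose, the median changes were 0.98 and 2.06, and 0 members fell. Among members of this chemistry, GSTU12 and GRXC2 reached the level minimum only through their sucrose cultures (sorbitol means 6.34 and 6.98). The level minimum thus favoured rises in these counts. GSTU24 (AT1G17170) had a total RNA level of 7.59, 7.96 and 9.42 in light sucrose against 6.56, 6.08 and 7.05 in the light control, and 10.73, 10.95 and 11.70 in dark sucrose against 7.08, 7.51 and 7.95 in the dark control. Sucrose cultures were higher throughout, by 1.76 ± 0.44 in the light and 3.61 ± 0.44 in the dark (limma adjusted p = 0.00387 and 1.52e-06). UGT74E2 had 7.08, 7.53 and 9.32 in light sucrose against 6.50, 6.74 and 6.87 in the light control, and 11.30, 11.50 and 12.20 in dark sucrose against 7.17, 7.46 and 7.67 in the dark control. Its rise of 4.23 ± 0.47 in the dark (limma adjusted p = 4.66e-07) was the largest of all members, while its rise of 1.27 ± 0.47 in the light (adjusted p = 0.0462) rested on culture 9 and was 0.69 without it (adjusted p = 0.0161), no longer above 2-fold. Without culture 7 or 8, the light rise of UGT74E2 did not pass (adjusted p = 0.0816 and 0.181), nor did that of GSTU24 without culture 8 (adjusted p = 0.0991). DHAR2 (AT1G75270), a dehydroascorbate reductase that regenerates ascorbate, had 9.20, 9.10 and 9.12 in light sucrose against 7.68, 7.69 and 8.05 in the light control, and 9.91, 10.21 and 10.86 in dark sucrose against 7.92, 8.07 and 8.13 in the dark control. The light sucrose cultures lay close together, and in dark sucrose culture 9 was highest. Its rises were 1.34 ± 0.19 and 2.29 ± 0.19 (limma adjusted p = 1.84e-05 and 1.27e-08).

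Other transferases of the tau class differed from these. GSTU25, beside GSTU24, rose by 1.56 in the light and 3.03 in the dark (limma adjusted p = 0.0043 and 3.56e-06), and ERD9 by 1.15 and 1.29 (adjusted p = 0.00876 and 0.00317). Without culture 8 the light rise of GSTU25 had an adjusted p of 0.0562, and without culture 7 both rises of ERD9 missed the threshold (adjusted p = 0.123 and 0.0642). GSTU20 (AT1G78370) ran the other way in the dark, with 6.25, 6.14 and 5.32 in dark sucrose against 7.29, 6.96 and 6.20 in the dark control. Its light sucrose cultures had 8.90, 9.19 and 7.30, against 7.21, 7.98 and 6.47 for the light control. Neither difference passed (limma, 1.24 ± 0.59 in the light, adjusted p = 0.134, and -0.91 ± 0.59 in the dark, adjusted p = 0.277). With the replicate number as a block both passed, as a rise in the light (adjusted p = 0.000365) and a fall in the dark (adjusted p = 0.00453), and without culture 9 they passed too (adjusted p = 0.00109 and 0.0155). GSTU19 had a change of -0.30 in the light (adjusted p = 0.192) and rose by 0.73 in the dark (adjusted p = 0.00126, and 0.0512 without culture 8). In the detoxification group culture 9 had the highest total RNA value of its treatment for 11 of 16 genes in light sucrose, 13 in dark sucrose, 13 in light controls and 11 in dark controls, compared with 60, 57, 72 and 67 of the 134 members in these treatments. Without culture 9, limma called 8 rises of more than 2-fold in the group for light sucrose and 10 for dark sucrose, with median changes of 0.85 and 1.79. Without culture 7 the rises numbered 4 and 9, and without culture 8 they numbered 2 and 11.

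**Figure D5:**
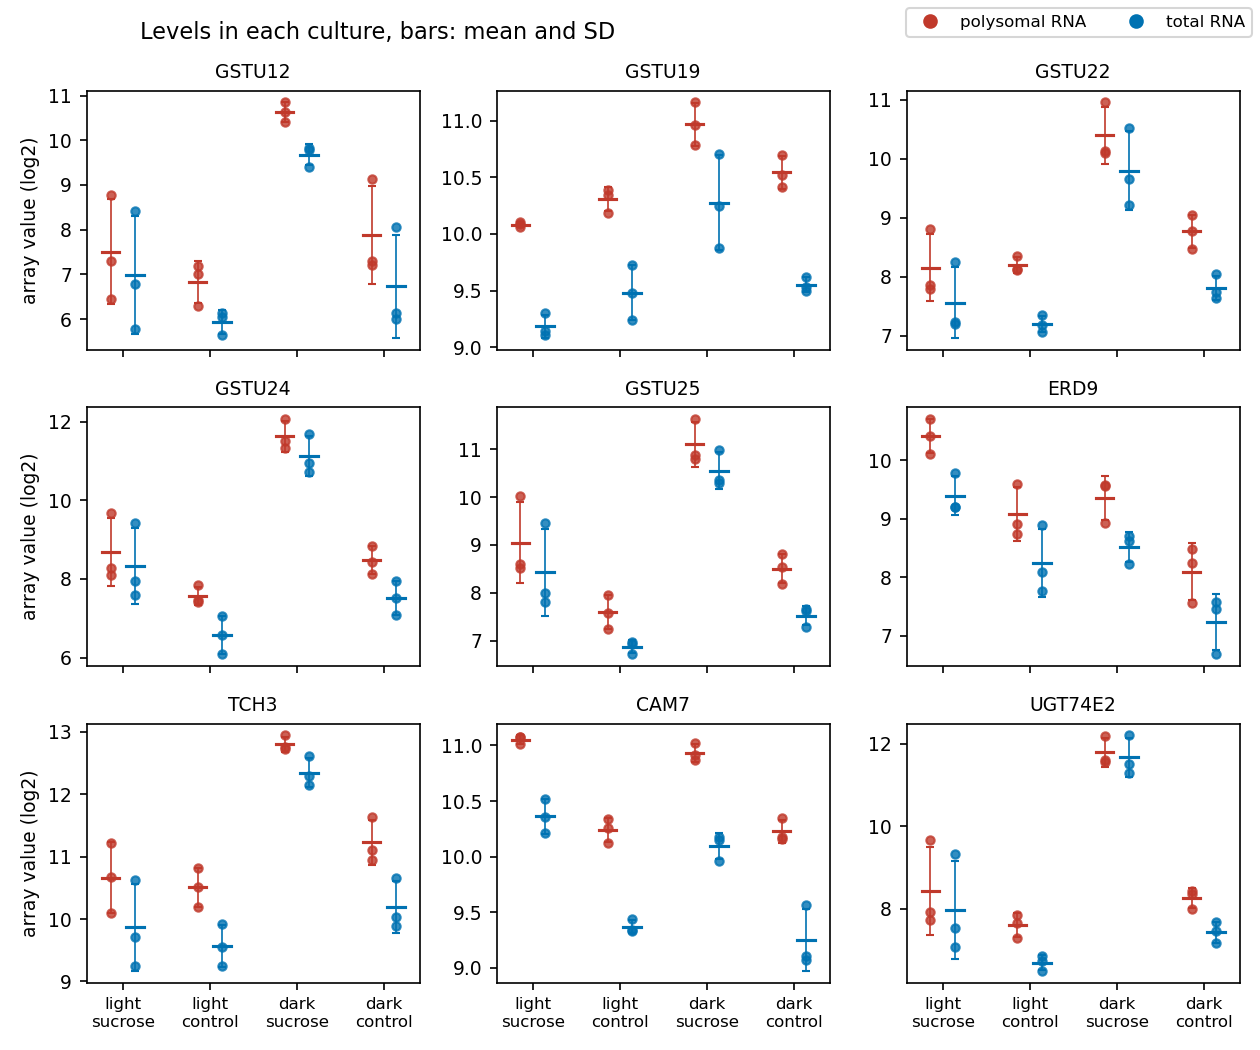
Array value (log2) of 9 members in polysomal and total RNA of each culture, one point per culture, with the mean and SD of each group of 3, for GSTU12, GSTU19, GSTU22, GSTU24, GSTU25, ERD9, TCH3, CAM7 and UGT74E2. In total RNA, UGT74E2 lies between 11.30 and 12.20 in dark sucrose and between 7.17 and 7.67 in the dark control. GSTU12 reached the level minimum only through its sucrose cultures.

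Calcium binding proteins, 6 members, changed less, except for TCH3 (AT2G41100), a calmodulin-like protein first known for its response to touch. TCH3 had 9.71, 9.25 and 10.62 in light sucrose against 9.55, 9.24 and 9.91 in the light control, which overlap, and 12.14, 12.29 and 12.61 in dark sucrose against 9.88, 10.04 and 10.66 in the dark control, which do not. Its change was 0.30 ± 0.31 in the light (limma adjusted p = 0.572) and its rise 2.15 ± 0.31 in the dark (adjusted p = 1.58e-05). CAM7 (AT3G43810), a calmodulin gene, rose by 0.99 ± 0.12 in light and 0.85 ± 0.12 in dark sucrose (limma adjusted p = 2.37e-06 and 1.2e-05), and so remained under 2-fold. Without a minimum fold, 3 of the 6 rose in the light and 5 in the dark.

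Of the nuclear, nucleolar and RNA binding proteins, 12 members, 5 rose by more than 2-fold in light sucrose and 4 in dark sucrose. At any size 10 rose and 0 fell in the light, and 8 rose and 1 fell in the dark. FIB2 (AT4G25630), a fibrillarin that methylates ribosomal RNA, rose by 1.94 in the light and 1.62 in the dark (limma adjusted p = 1.66e-07 and 1.03e-06). HDA3 (AT3G44750), a nucleolar histone deacetylase, rose by 1.96 and 1.38 (adjusted p = 6.38e-09 and 2.94e-07). The mRNAs for mitochondrial proteins, 5 members, included RPS2, a ribosomal protein, PNM1, a pentatricopeptide repeat protein, MORF1, an RNA editing factor, and VDAC3, a porin of the outer membrane, and all 4 rose in the light by more than 2-fold (1.10, 1.21, 1.39 and 1.20), while the iron-sulfur scaffold gene ISU1 had a change of 0.08 (limma adjusted p = 0.69). In the dark MORF1 and VDAC3 rose by more than 2-fold (1.26 and 2.34), RPS2 and PNM1 rose by 0.62 and 0.67, and the median of the 5 was 0.67, against 1.20 in the light. VDAC3 had the larger rise in the dark (light minus dark -1.14, limma adjusted p = 0.0012), while for the other 4 the difference between light and dark did not pass.

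Plastid proteins, 10 members, moved in both directions. The ferredoxin gene FD3 rose by 1.38 in the light and 1.92 in the dark (limma adjusted p = 5.72e-07 and 4.50e-09), and the starch debranching enzyme gene DBE1 by 1.299 in the light (adjusted p = 0.00399). OHP2, a one-helix protein of photosystem assembly, fell by 1.24 and 1.36 (adjusted p = 9.57e-05 and 2.70e-05), FTRA2 fell by 1.13 and 1.11 (adjusted p = 1.28e-05 and 1.22e-05), and PSRP2 fell by 1.83 in the dark (adjusted p = 0.000349). FTRA2 and PSRP2 thus had less total RNA in dark sucrose than in the dark control. They were also 2 of the 3 members with the highest occupancy in sucrose. Occupancy subtracts the total RNA value of the same culture, so these observations are not independent. Without culture 7 or 8 the rise of DBE1 had an adjusted p of 0.0868 and 0.0914. Members for protein turnover and folding (7) and membrane traffic (4) had 1 rise of more than 2-fold in the light and 0 in the dark, but all 11 were called higher in polysomal than in total RNA in both sucrose conditions, with median occupancies in sucrose of 0.74 and 0.73. The 16 detoxification genes had a close median, 0.70, with 6 and 5 so called in light and dark sucrose, and no difference between these groups was tested.

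Polysomal RNA followed total RNA. In the light, 26 members rose and 13 fell in polysomal RNA by more than 2-fold (limma, 19.4% and 9.7%, against 4.79% and 4.34% of all features), and in the dark 30 rose and 12 fell (22.4% and 8.96%, against 5.48% and 5.47%). Of expressed features 8.84% rose and 7.92% fell in the light, and 8.57% rose and 10.6% fell in the dark. The falls of members were near these shares under this choice. The control polysomal arrays entered these changes and, with the opposite sign, the choice of members. The medians of the members were 0.39 and 0.33. Of the 35 steady-state rises in the light 25 were also polysomal rises, and of the 37 in the dark 30 were, and 9 of 10 and 11 of 12 falls were shared. With occupancy and level taken from the controls of the other light condition, 26 of 204 rose and 27 fell in the light. These were 12.7% and 13.2%, against 6.94% and 9.39% of features at this level. In the dark 14 of 113 rose and 25 fell (12.4% and 22.1%, against 6.47% and 12.7%). Falls were thus above the shares of features under this choice, in light and dark. AT4G17260, the second member by its rise in the dark, had 12.64, 12.68 and 13.07 in polysomal RNA of dark sucrose against 8.90, 9.07 and 9.20 in the dark control, and 12.09, 12.11 and 12.45 against 7.74, 7.98 and 8.25 in total RNA. The difference was 3.74 ± 0.30 in polysomal and 4.23 ± 0.30 in total RNA (limma adjusted p = 7.35e-09 and 1.36e-09).

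The response to sucrose differed between light and dark for part of the members. In the limma test of the difference itself, 23 members passed at an adjusted p under 0.05, with the change higher in the light for 6 (4.48%, against 4.09% of all features) and higher in the dark for 17 (12.7%, against 4.85% of all features and 8.25% of expressed ones, while for the 6 the share of expressed features was 7.46%). In polysomal RNA the change was higher in the light for 10 and higher in the dark for 17 (7.46% and 12.7%, against 6.33% and 5.21% of all features). The detoxification group held 6 of the 17, and 4 of the 17, AT1G13480, AT1G26380, AT1G62840 and CDI, had sorbitol means below 7. AT4G17260 had a light minus dark difference of -2.64 ± 0.43 (limma adjusted p = 0.00048), SOT12 (AT2G03760), a sulfotransferase, of -1.90 ± 0.31 (adjusted p = 0.000467), GGP1, a peptidase of glutathione conjugates, of -1.67 ± 0.38 (adjusted p = 0.00762), and TCH3 of -1.86 ± 0.44 (adjusted p = 0.0112). AT1G13480 had the widest difference, -3.002 ± 0.86 (adjusted p = 0.0325), with 6.43, 5.97 and 8.19 in light sucrose against 6.08, 5.69 and 6.22 in the light control, and 9.95, 9.63 and 10.83 in dark sucrose against 5.76, 6.10 and 6.93 in the dark control. It rose in the dark by 3.87 ± 0.61 (adjusted p = 3.73e-05), and in light sucrose only culture 9 lay clearly above the controls. The cytosolic ribosomal protein gene AT5G39850 was among those with a larger rise in the light (difference 0.71, adjusted p = 0.0326). The count depended on the fit, with 43 members when the replicate number was a block, 2 without culture 7, 1 without culture 8 and 48 without culture 9. Of the genes named here, AT5G01740 (described with the dark controls) kept its call whichever culture was left out.

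Darkness alone changed few members. The share that fell was above that of all features, many of which lie below the level minimum. A share of expressed features is not given for this comparison, so members were not compared with features of like level. Between the dark and light controls, 1 member rose (limma, 0.746%, against 0.454% of all features) and 7 fell (5.22%, against 1.03%) by more than 2-fold in total RNA. In polysomal RNA, 1 rose (0.746%, against 0.425%) and 5 fell (3.73%, against 0.951%). The rise was that of AT5G01740, with 8.69, 8.86 and 8.35 in the dark control against 6.94, 6.73 and 6.54 in the light control (1.90 ± 0.20, limma adjusted p = 8.85e-06). After sucrose in the dark its level was 6.98, 7.04 and 6.43 (-1.82 ± 0.20, adjusted p = 5.21e-07, against the dark control), so its light minus dark difference was 2.38 ± 0.29 (adjusted p = 2.47e-05). XTH7 (AT4G37800), for a xyloglucan endotransglucosylase of the cell wall, fell furthest, with 8.11, 7.87 and 6.51 in the dark control against 9.49, 9.75 and 9.30 in the light control (-2.02 ± 0.41, limma adjusted p = 0.0033, and 0.0626 and 0.0871 without culture 7 or 8). The others that fell were POR C and PCB2, which act in chlorophyll synthesis, DBE1, ERD9, AT1G13930 and AT4G34290. With culture 7, 8 or 9 left out, limma called 4, 2 and 5 members. The change in occupancy between dark and light controls had a median of 0.08, and limma called 0 members and 0.0% of all features, with 1 member at an unadjusted p under 0.05.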

How the data were processed

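The 24 arrays held total and small polysome RNA of 12 cultures, in 8 groups of 3. Groups were taken from the labels. The authors deposited log2 values made with RMA (background correction, normalization between arrays and summarization per gene), from which the non-polysomal arrays had been left out. The number of probes behind a value and the genome build were not used here, so no coordinates are given. Of 30757 rows, 371 array controls were dropped, and no filter on low values was applied in the tests. Names came from a RefSeq gene table, in which 29586 of 30174 loci were found.

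All arrays entered a single limma 3.58.1 fit of 8 group means in R 4.3.3 (prior degrees of freedom 3.57). Benjamini-Hochberg adjustment ran over all 30386 features within each comparison. Every adjusted p comes from this model, unless a block, within-culture differences or a culture left out is named beside it. The value after ± beside a difference is its standard error. An adjusted p under 0.05 was required throughout, together with over 2-fold for a change in total or polysomal RNA. Tables and figures were made with Python 3.11.15, pandas 2.3.3 and matplotlib 3.10.9, and the model was tested on simulated data. In this test the smaller differences were recovered in part only, and its effect sizes and pass mark had been relaxed after a first version failed.

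The members and lists were chosen with earlier results of these data known. Patterns of several family lists were corrected after their matches had been seen, and 6 lists, the 7 role groups and the occupancy contrast of the controls were added after the values were seen. Genes were named by rule as the 10 highest members in sorbitol, the 3 largest called rises and falls with one direction in all replicates, the 3 highest and 3 lowest in sucrose, those next to the threshold, and the largest rise and fall in the dark control. Other names were chosen after their values were seen. Protein lengths were not available here, and the gene span took their place.

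Arrays with the same replicate number deviated together from their group means in every pair of sucrose and control groups (correlations from 0.109 to 0.387), so the numbers pair the samples there, which rests on the data and not on the labels. Total and polysomal arrays of one culture had correlations from 0.269 to 0.488. In the dark and light control totals they lay between 0.0147 and 0.296. The replicate number as a block, the culture as a random block (correlation 0.417), a trend with a robust prior, quantile normalization, centring, a filter on low means, only the groups compared, other thresholds for members, members chosen on one light condition, and leaving out each replicate were the alternatives. Within-culture differences and a level minimum from sorbitol arrays were added after seeing the data. Nothing in the labels says that cultures were grown separately in time, so p-values measure the spread between these cultures.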

Additional observations from a re-analysis of the deposited data

Results flagged for a closer look

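The steady-state response to sucrose differed between light and dark in 23 members (17.2%) by limma's test of the difference itself (adjusted p under 0.05). Of members, 4.48% were called higher in the light and 12.7% higher in the dark, against 7.46% and 8.25% of expressed features. The values are the log2 change in the light minus that in the dark. Changes lower in the light than in the dark were those of AT1G13480 (-3.002), UGT74E2 (-2.96), AT1G26380 (-2.83) and AT4G17260 (-2.64). The sulfotransferase gene SOT12 (-1.90), the calmodulin-like gene TCH3 (-1.86), AT1G62840 (-1.70), GGP1 (-1.67), GSTU22 (-1.62) and SRC2 (-1.41), a C2 domain protein gene, came next. Smaller differences of the same sign were those of AT1G23440 (-1.22), LEA14 (-1.19), VDAC3 (-1.14), GSTU19 (-1.03), DHAR2 (-0.95), CDI (-0.79) and VPS46.1 (-0.49). Changes higher in the light were those of AT5G02050 (0.59), AT4G10480 (0.64), AT2G30060 (0.70), AT5G39850 (0.71), AT3G23620 (0.80) and AT5G01740 (2.38). In light sucrose, the total RNA level of culture 9 stood above cultures 7 and 8 in UGT74E2 (9.32, against 7.08 and 7.53) and in AT4G17260 (10.65, against 9.24 and 9.44). Without culture 9 the light minus dark differences of both were larger in size, -3.40 for UGT74E2 and -3.002 for AT4G17260. Without culture 9, 22 of the 23 differences still passed, among 48 members in all, whereas without culture 7 or 8 only 2 and 1 of the 23 did. AT1G13480, AT1G26380, AT1G62840 and CDI reached the level minimum only through their sucrose cultures.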

How the results depend on the processing

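Chosen on the dark controls alone there were 218 members, on the light controls alone 120, with each array centred on its expressed features 49, and with a replicate left out between 137 and 146. With members chosen on the dark controls, steady-state calls in the light numbered 72 in place of 45, polysomal calls 59 in place of 39, and the median occupancy change in the light was -0.0904 in place of -0.14. Members called higher in polysomal RNA numbered 90 in light sucrose and 89 in dark sucrose, and with 2-fold required 5 and 6, with members at 0.6 or more 434 and 462 (of 648), at 1 or more 9 and 8 (of 17), and with a mean total level of 8 or more 46 and 47 (of 72). In dark sucrose, a fit of only the groups compared called 55. Leaving out a replicate gave 34 to 113 calls in light and 32 to 118 in dark sucrose, 37 to 48 steady-state calls in the light and 44 to 54 in the dark, 34 to 41 and 37 to 46 polysomal calls, 2 to 5 dark control calls in place of 8, and 1 to 48 members with a light minus dark difference. That difference was called for 23 members, for 43 with the replicate block and for 14 with only the groups compared. The replicate block gave 120 and 116 members called higher in polysomal RNA in light and dark sucrose, and it moved no other count by over 1.5 times. Of 62 values of single members, 57 passed the test, and under the settings that kept all replicates, 2 values no longer passed (UGT74E2 in light sucrose and the light minus dark difference of AT5G39850, both with only the groups compared) and 2 newly passed (GSTU20 with the replicate block). With a replicate left out, 24 comparisons of a value with its main result no longer passed, 2 newly passed, and the change of ISU1 in the light, which was not called, had values from -0.0836 (without replicate 7) to 0.201 (without replicate 9) in place of 0.0817. The causes were not tested. With 3 arrays per group, a difference between polysomal and total RNA had a median standard error of 0.16 and an occupancy change one of 0.22, which limits what could be called. A fit of within-culture differences and a level minimum over the 6 sorbitol total arrays were chosen after seeing the data. The fit moved neither count of members called higher in polysomal RNA by over 1.5 times. The level minimum (128 members, of which 118 in common) moved the falls in dark sucrose by more than that. Falls there numbered 20 in place of 12 in total RNA, and 22 in place of 12 in polysomal RNA. Rises there numbered 29 in place of 37 in total RNA, and 22 in place of 30 in polysomal RNA. Rises thus no longer outnumbered falls in polysomal RNA of dark sucrose under this level minimum.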

Other observations

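Expressed non-coding RNAs lay furthest below the members, with a median occupancy of -1.01 over the 6 sucrose cultures and of -1.18 over the 6 sorbitol cultures. Organelle-encoded genes had medians of -0.70 with sucrose and -0.62 in sorbitol, and 0 of 117 lay above 0 with sucrose.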
